A study of Saccharomyces cerevisiae with 12 samples.

Results

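The genes described here are the 10 budding yeast genes for the enzymes that make and break down glycogen, out of 5085 genes listed in each of 3 deposited tables. They were chosen by gene symbol and all 10 were found in every table. Of these, 8 act on the synthesis side (GLG1, GLG2, GSY1, GSY2, GLC3 and the sugar supply genes PGM1, PGM2 and UGP1) and 2 in breakdown (GPH1 and GDB1), and 6 of the 10 form 3 isoform pairs.

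RNA was sequenced from Saccharomyces cerevisiae in log phase, in groups of 3 samples given doxycycline at 0.01, 0.1 or 0.5 µg/mL, each set against the same control group of 3 samples. Every group, the control included, is labelled as strain TH_5234, a MATa haploid. In it RAP1 was placed under pRAP1::kanR-tetO7-TATA, the activator came from URA3::CMV-tTA, and the labels add the mutations his3-1, leu2-0 and met15-0. In such a tet-off strain doxycycline releases the activator, and the design was meant to lower the transcription factor Rap1 in steps. Rap1 is best known as an activator of ribosomal protein and glycolytic genes. A single strain was used, and the control carries the engineered promoter too.

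Glycogen is a branched glucose polymer that yeast stores when growth slows or stress sets in. Phosphoglucomutase turns glucose 6-phosphate into glucose 1-phosphate, UDP-glucose pyrophosphorylase turns that into UDP-glucose, glycogenin starts a chain, glycogen synthase extends it and the branching enzyme adds branches. Glycogen phosphorylase and the debranching enzyme take the polymer apart again. Many of these genes are known targets of the stress factors Msn2 and Msn4, which bind the stress response element, and the enzymes are also controlled by phosphorylation, which RNA does not show.

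Upstream sequences of the PGM and GLG pairs are shown because the isoforms of these pairs moved differently, as described below. Each run is the 300 bases from 400 to 101 bases upstream of the start codon, read 5′ to 3′ on the gene's strand in RefSeq's R64 assembly, with matches to the stress response element AGGGG in capitals, as CCCCT where the match is on the other strand. The windows are chrXIII:477707-478006 for PGM2 (minus strand), chrXI:203141-203440 for PGM1 (plus strand), chrXI:552370-552669 for GLG1 (plus strand) and chrX:156228-156527 for GLG2 (minus strand). All 4 lie upstream of single-exon coding regions, and the GLG2 window overlaps the small coding gene YJL136W-A.
PGM2: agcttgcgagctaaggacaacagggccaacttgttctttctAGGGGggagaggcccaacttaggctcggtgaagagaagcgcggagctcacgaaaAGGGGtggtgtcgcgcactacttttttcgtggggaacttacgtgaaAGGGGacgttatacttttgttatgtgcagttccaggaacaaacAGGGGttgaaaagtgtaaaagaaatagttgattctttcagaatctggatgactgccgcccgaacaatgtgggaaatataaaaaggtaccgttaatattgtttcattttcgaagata
PGM1: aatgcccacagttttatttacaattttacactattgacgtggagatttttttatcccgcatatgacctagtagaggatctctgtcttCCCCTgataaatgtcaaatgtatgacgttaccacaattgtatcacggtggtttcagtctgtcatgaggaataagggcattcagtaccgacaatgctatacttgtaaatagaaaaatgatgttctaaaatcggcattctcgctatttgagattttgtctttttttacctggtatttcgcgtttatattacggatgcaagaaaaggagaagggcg
GLG1: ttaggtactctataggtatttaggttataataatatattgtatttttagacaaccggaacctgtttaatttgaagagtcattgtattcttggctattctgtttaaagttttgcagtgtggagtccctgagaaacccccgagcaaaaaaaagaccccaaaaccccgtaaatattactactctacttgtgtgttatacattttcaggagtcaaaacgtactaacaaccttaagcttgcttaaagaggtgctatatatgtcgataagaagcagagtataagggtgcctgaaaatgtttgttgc
GLG2: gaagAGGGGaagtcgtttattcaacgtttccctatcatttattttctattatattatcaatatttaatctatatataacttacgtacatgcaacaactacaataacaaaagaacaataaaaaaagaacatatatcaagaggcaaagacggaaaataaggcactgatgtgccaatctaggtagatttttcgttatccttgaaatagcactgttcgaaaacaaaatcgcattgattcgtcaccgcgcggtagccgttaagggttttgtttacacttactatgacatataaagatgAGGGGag

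In this window PGM2 held 4 matches to AGGGG on either strand, PGM1 held 1, GLG1 held 0 and GLG2 held 2. Of 6007 coding genes with a full window, 23.6% held at least 1 match, 4.15% at least 2 and 0.133% at least 4. Of the 10 glycogen genes, 9 held at least 1 and 6 at least 2. GLC3 held 3 matches, GSY2, UGP1 and GPH1 held 2 each, and GSY1 and GDB1 held 1 each. Over the 600 bases before the start codon the counts were 6 for PGM2, 5 for UGP1, 3 each for PGM1, GLC3 and GPH1, 2 each for GSY1, GSY2 and GLG2, 1 for GDB1 and 0 for GLG1, and 39.7% of 6005 coding genes held at least 1 match there. The heat shock element, searched as TTCNNGAANNTTC on both strands, was found upstream of 0 of the 10 genes in either window. Only 1.10% of all coding genes held it in the shorter window, so nothing is read from the 0. These are matches of letters, not measured binding sites.

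**Figure D1:**
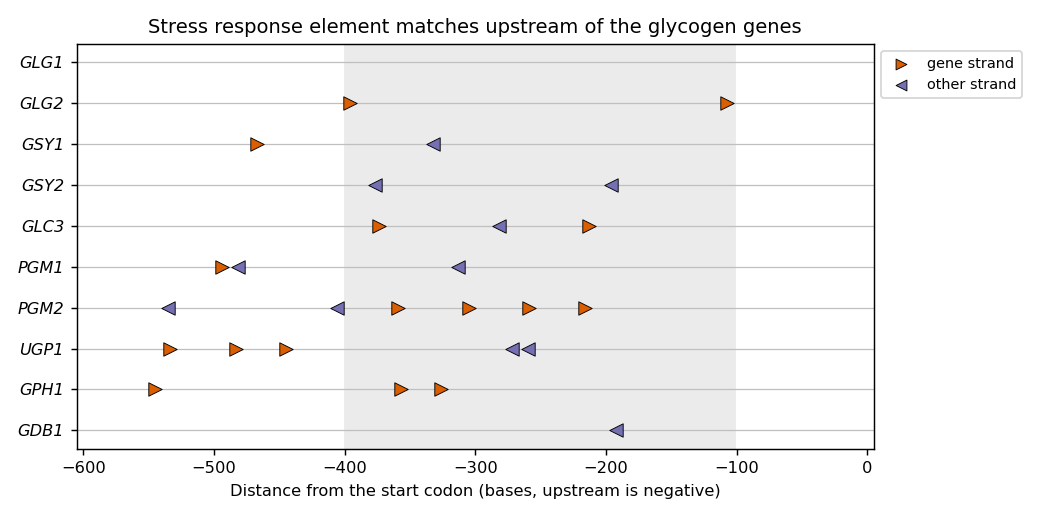
Distance from the start codon in bases (x axis) of each AGGGG match in the 600 bases upstream of the 10 glycogen genes (rows), with arrows for the strand and the window from 400 to 101 bases shaded. PGM2 has 6 matches, 4 of them in the shaded window, and GLG1 has 0.

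The levels that follow are FPKM, that is, fragments scaled to transcript length and to library size. The authors pooled the 3 samples of each group into 1 level, so no SD can be given, values of single samples were not analysed here and the library depth is unknown. In bulk RNA a change in every cell and one in a share of the cells cannot be told apart. A gene is said to have risen or fallen where the authors' q was below 0.05. Each table was scaled separately, with control columns at a median ratio of 0.997 and 0.996 to that of the 0.01 µg/mL table, and no test was made between doses. Nothing in the labels ties the 3 samples of a group to separate cultures, so the spread behind q may be technical. RAP1 mRNA, the targeted gene, was listed in the authors' deposited tables at 33.3 FPKM at 0.01 µg/mL against 31.7 FPKM in its control (q = 0.827), at 31.0 against 31.5 FPKM at 0.1 µg/mL (q = 0.935) and at 22.0 against 31.5 FPKM at 0.5 µg/mL (q = 0.00764). RAP1 mRNA was therefore called lower at the highest dose and at no other, and doses are given as labelled. Over all tested genes the median log2 fold change was -0.08 at 0.01, -0.03 at 0.1 and -0.30 at 0.5 µg/mL. The 7 genes specific to MATa cells summed to 183700 to 184500 FPKM in the control columns and the 4 alpha-cell genes to 315.2 to 316.6 FPKM.

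Most glycogen genes rose at every dose of doxycycline, and the same 8 rose each time: GLG1, GSY1, GSY2, GLC3, PGM2, UGP1, GPH1 and GDB1. GLG2 was not called at any dose. PGM1 fell at the highest dose and was not called at the lower ones. At 0.01 µg/mL 8 of 10 rose and 0 fell, where 8.75% of all 5049 tested genes rose and 15.4% fell. At 0.1 µg/mL it was again 8 and 0, with 17.6% of 5054 genes higher and 20.4% lower. At 0.5 µg/mL 8 rose and 1 fell, with 7.49% of 5047 genes higher and 38.9% lower. The 3 comparisons share their control samples, so the repeat of the calls is not an independent one.

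The median log2 fold change of the 10 genes was 1.35 at 0.01, 1.31 at 0.1 and 0.74 at 0.5 µg/mL. Counted from the median of all tested genes in the same table it was 1.43, 1.34 and 1.04. The 10 levels summed to 2175 FPKM at 0.01 µg/mL against 828.6 FPKM in its control, to 2244 against 825.8 FPKM at 0.1 µg/mL and to 1495 against 825.0 FPKM at 0.5 µg/mL. Each of the 8 genes that rose had a smaller fold change at 0.5 than at 0.1 µg/mL, a difference that was not tested. Counted from the median of all genes, the fold change was also the smaller one at 0.5 µg/mL for each of these 8.

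**Figure D2:**
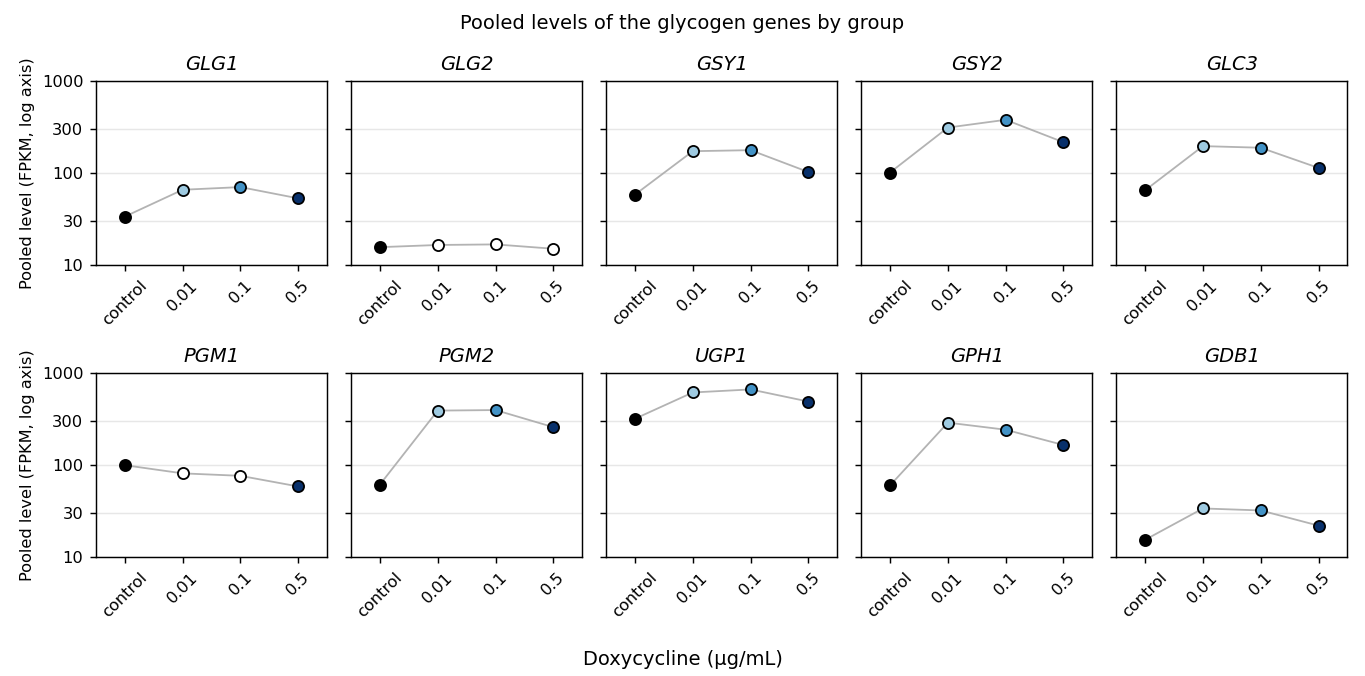
Pooled level in FPKM (y axis, log scale) of each glycogen gene in the control and at 0.01, 0.1 and 0.5 µg/mL doxycycline (x axis). Black points are the control of the 0.01 µg/mL table, blue points were called against the control of their own table, and white points were not. GPH1 reaches 290 FPKM at 0.01 µg/mL, and GLG2 stays between 14.9 and 16.7 FPKM.

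Among the sugar supply genes PGM2, known as the major phosphoglucomutase, had the largest fold change. In the authors' deposited tables PGM2 stood at 391.8 FPKM at 0.01 µg/mL against 61.30 FPKM in its control, at 397.0 against 61.11 FPKM at 0.1 µg/mL and at 258.8 against 61.04 FPKM at 0.5 µg/mL. Its log2 fold changes were 2.68, 2.70 and 2.08, the largest of the 10 genes at each dose. Its q was the smallest value of each table (0.000608, 0.000329 and 0.000273), a floor shared by 477, 886 and 1112 genes. PGM2 ranked 11th of 5049 tested genes by fold change at 0.01 µg/mL, 18th of 5054 at 0.1 and 22nd of 5047 at 0.5 µg/mL. Its paralog PGM1, known as the minor isoform by enzyme activity, was called lower only at the highest dose. PGM1 stood at 81.25 FPKM at 0.01 µg/mL against 99.70 FPKM in its control (q = 0.19), at 76.39 against 99.35 FPKM at 0.1 µg/mL (q = 0.0646) and at 58.50 against 99.26 FPKM at 0.5 µg/mL (q = 0.000273), all from the authors' deposited tables. Its log2 fold changes were -0.30, -0.38 and -0.76, or -0.22, -0.35 and -0.46 from the median of all genes. At 0.5 µg/mL 18.5% of tested genes had a lower fold change than PGM1.

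UGP1, the only UDP-glucose pyrophosphorylase gene among the 10, was the most abundant of them in every group. In the authors' deposited tables it stood at 617.1 FPKM at 0.01 µg/mL against 319.4 FPKM in its control, at 665.8 against 318.4 FPKM at 0.1 µg/mL and at 491.4 against 318.0 FPKM at 0.5 µg/mL. It rose at each dose, with log2 fold changes of 0.95 (q = 0.00246), 1.06 (q = 0.000329) and 0.63 (q = 0.0304).

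Of the glycogenin genes, whose products glucosylate themselves to start a chain, GLG1 rose and GLG2 was not called. GLG1 stood at 65.52 FPKM at 0.01 µg/mL against 33.44 FPKM in its control, at 70.07 against 33.33 FPKM at 0.1 µg/mL and at 52.83 against 33.29 FPKM at 0.5 µg/mL in the authors' deposited tables. Its log2 fold changes were 0.97 (q = 0.000608), 1.07 (q = 0.000329) and 0.67 (q = 0.00266). GLG2 stood at 16.42 against 15.54 FPKM at 0.01 µg/mL, at 16.66 against 15.49 FPKM at 0.1 µg/mL and at 14.94 against 15.47 FPKM at 0.5 µg/mL (q = 0.861, 0.73 and 0.88, all from the authors' deposited tables). In the windows printed above, GLG1 holds 0 matches to AGGGG and GLG2 holds 2, while PGM2 holds 4 and PGM1 holds 1. Any link between these matches and the changes was not tested.

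Both glycogen synthase genes rose, and with similar fold changes at 0.01 µg/mL. GSY2, the main isoform, stood at 311.4 FPKM at 0.01 µg/mL against 101.0 FPKM in its control, at 378.4 against 100.7 FPKM at 0.1 µg/mL and at 215.7 against 100.6 FPKM at 0.5 µg/mL in the authors' deposited tables. Its log2 fold changes were 1.62, 1.91 and 1.10, each at the smallest q of its table, a value that many other genes share. GSY1 stood at 172.3 FPKM at 0.01 µg/mL against 58.02 FPKM, at 176.8 against 57.81 FPKM at 0.1 µg/mL and at 102.2 against 57.76 FPKM at 0.5 µg/mL in the authors' deposited tables. Its log2 fold changes were 1.57 (q = 0.000608), 1.61 (q = 0.000329) and 0.82 (q = 0.00401). GLC3, the branching enzyme gene, lay close to GSY1. It stood at 195.7 FPKM at 0.01 µg/mL against 64.66 FPKM, at 187.9 against 64.45 FPKM at 0.1 µg/mL and at 113.3 against 64.38 FPKM at 0.5 µg/mL in the authors' deposited tables. The log2 fold changes of GLC3 were 1.60 (q = 0.000608), 1.54 (q = 0.000329) and 0.82 (q = 0.00231), within 0.1 of those of GSY1 at every dose.

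On the breakdown side GPH1, glycogen phosphorylase, rose more than any gene of the set but PGM2. GPH1 stood at 289.7 FPKM at 0.01 µg/mL against 60.11 FPKM in its control, at 242.6 against 59.92 FPKM at 0.1 µg/mL and at 165.3 against 59.86 FPKM at 0.5 µg/mL in the authors' deposited tables. Its log2 fold changes were 2.27, 2.02 and 1.47, each at the smallest q of its table, a value that many other genes share. Its level was highest at 0.01 µg/mL, as were those of GLC3 and GDB1, whereas GLG1, GSY1, GSY2, PGM2 and UGP1 were highest at 0.1 µg/mL. These orders between doses were not tested. GDB1, the debranching enzyme gene, rose less from a low level. It stood at 33.72 FPKM at 0.01 µg/mL against 15.38 FPKM, at 32.07 against 15.32 FPKM at 0.1 µg/mL and at 21.92 against 15.31 FPKM at 0.5 µg/mL in the authors' deposited tables. The log2 fold changes of GDB1 were 1.13 (q = 0.000608), 1.07 (q = 0.000329) and 0.52 (q = 0.0231). The level of GPH1 over that of GDB1 was 8.59 at 0.01 µg/mL against 3.91 in the control, 7.57 against 3.91 at 0.1 µg/mL and 7.54 against 3.91 at 0.5 µg/mL.

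**Figure D3:**
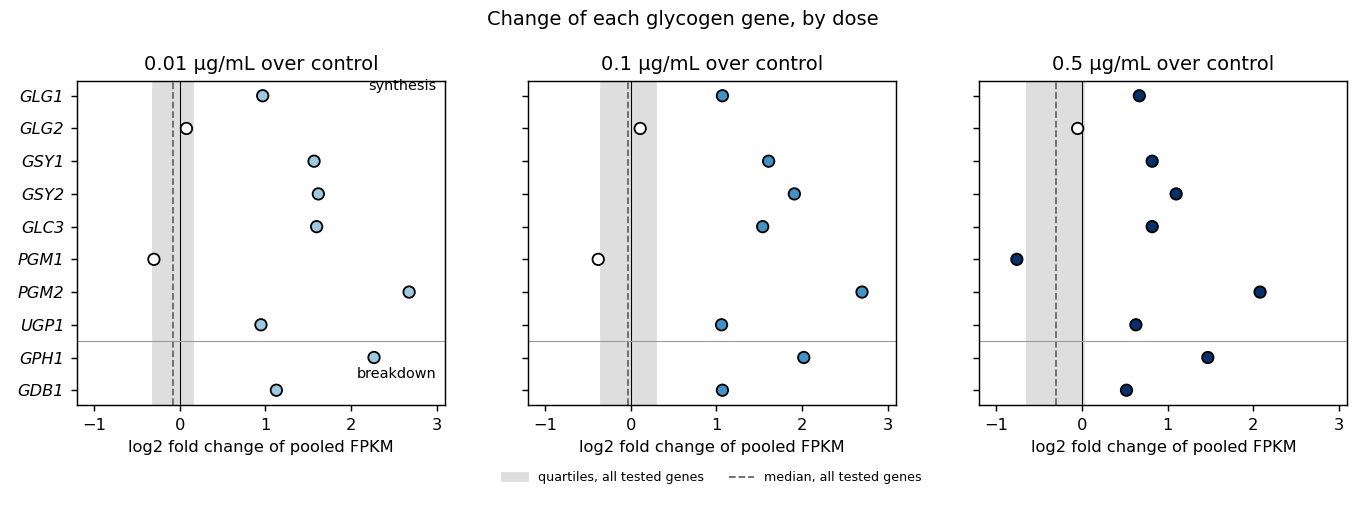
Log2 fold change of pooled FPKM, dose over control (x axis), of each glycogen gene (rows, synthesis above the line and breakdown below it), in 1 panel per dose. Filled points were called at the authors' q below 0.05, and the grey band and dashed line are the quartiles and median of all tested genes. PGM2 lies farthest right at 2.68, 2.70 and 2.08, and GLG2 lies inside the band at each dose.

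Synthesis and breakdown genes rose together: at each dose 6 of 8 synthesis genes and 2 of 2 breakdown genes rose. The 8 synthesis genes had a median log2 fold change of 1.27, 1.31 and 0.74 with rising dose, and the 2 breakdown genes 1.70, 1.54 and 0.99. The synthesis median minus the breakdown median was -0.43, -0.23 and -0.25. At 0.01 and 0.1 µg/mL that difference depends on the sugar supply genes. With GLG1, GLG2, GSY1, GSY2 and GLC3 alone, the difference was -0.13 at 0.01, 0.00204 at 0.1 and -0.18 at 0.5 µg/mL. Pooled levels give no error for these differences, and the fold changes of the 2 breakdown genes lay 1.14, 0.95 and 0.95 apart (GPH1 minus GDB1). Gene by gene, GPH1 exceeded GSY2 by 0.64, 0.11 and 0.37 on the log2 scale, and GDB1 lay below GLC3 by values of -0.47, -0.48 and -0.30. The summed level of both synthase genes over that of GPH1 was 1.67 at 0.01 µg/mL against 2.65 in the control, 2.29 against 2.64 at 0.1 µg/mL and 1.92 against 2.65 at 0.5 µg/mL.

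The isoform pairs differed from each other in how their members shared the change. For phosphoglucomutase, PGM2 held 82.8% of the summed PGM1 and PGM2 level at 0.01 µg/mL against 38.1% in the control, 83.9% against 38.1% at 0.1 µg/mL and 81.6% against 38.1% at 0.5 µg/mL. PGM2 stood above PGM1 at each dose, and below it in the control columns. PGM2 minus PGM1 in log2 fold change was 2.97, 3.08 and 2.85. The sum of both genes was 473.1 FPKM at 0.01 µg/mL against 161.0 FPKM, 473.4 against 160.5 FPKM at 0.1 µg/mL and 317.3 against 160.3 FPKM at 0.5 µg/mL.

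For glycogen synthase the balance moved least. GSY2 held 64.4% of the summed GSY1 and GSY2 level at 0.01 µg/mL against 63.5% in the control, 68.1% against 63.5% at 0.1 µg/mL and 67.9% against 63.5% at 0.5 µg/mL. GSY2 minus GSY1 in log2 fold change was 0.05, 0.30 and 0.28. For glycogenin, GLG2 held 20.0% of the pair at 0.01 µg/mL against 31.7% in the control, 19.2% against 31.7% at 0.1 µg/mL and 22.1% against 31.7% at 0.5 µg/mL. GLG2 minus GLG1 in log2 fold change was -0.89, -0.97 and -0.72. None of these pair differences could be tested, since the levels are pooled.

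The coding sequences of PGM2 and PGM1 shared 72.8% of 1708 aligned bases, with a longest identical stretch of 23 bases. GSY2 and GSY1 shared 73.1% of 2114 aligned bases, with a longest stretch of 20 bases, and GLG2 and GLG1 68.3% of 1124, with a longest stretch of 14 bases. How the authors treated reads that fit more than 1 gene is not given in the sources used here. None of the 10 coding regions overlapped another coding region in the RefSeq annotation.

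**Figure D4:**
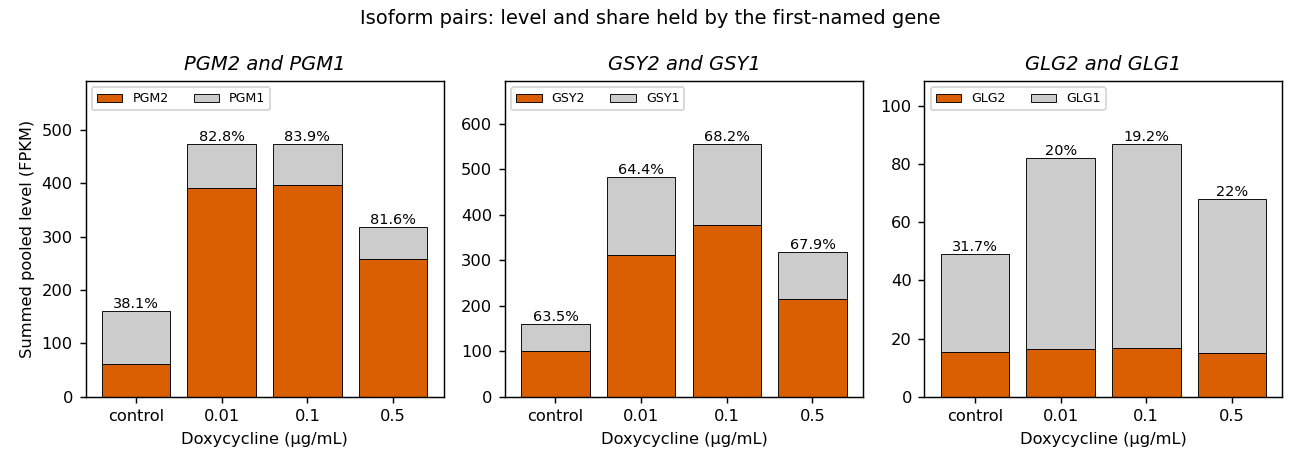
Stacked pooled levels in FPKM (y axis) of each isoform pair in the control of the 0.01 µg/mL table and at 3 doses of doxycycline (x axis). The percentage above a bar is the share held by the first-named gene in orange. PGM2 holds 82.8%, 83.9% and 81.6% at the 3 doses and 38.1% in the control.

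Of the genes that regulate the glycogen enzymes, some were called and others were not. A list of 7 genes held the synthase phosphatase, its regulatory subunits and activator, and IGD1, which acts on glycogen breakdown. Of these, 4, 4 and 3 rose with rising dose and 0 fell, with medians of 0.64, 0.95 and 0.35. The rises were 57.1%, 57.1% and 42.9% of the list, against 8.75%, 17.6% and 7.49% of all tested genes. Of all tested genes 15.4%, 20.4% and 38.9% fell. PIG2, a putative subunit that brings the phosphatase Glc7 to glycogen synthase, rose at each dose (log2 fold change 1.35, 1.57 and 0.94, from the authors' deposited tables). IGD1, an inhibitor of the debranching enzyme, stood at 216 FPKM at 0.01 µg/mL against 62.4 FPKM, and rose at each dose (log2 fold change 1.79, 2.09 and 1.77, from the authors' deposited tables). GLC8, an activator of Glc7, rose as well, by 0.64, 0.95 and 0.60. The phosphatase catalytic gene GLC7 itself was not called at any dose, with 0.13, 0.29 and -0.15. Of the other subunit genes, GAC1 (0.36, 0.32 and -0.20) and PIG1 (-0.01, 0.15 and -0.22) were not called at any dose. GIP2 rose at 0.01 (0.93) and 0.1 µg/mL (0.96) and was not called at 0.5 µg/mL (0.35).

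Of 12 kinase genes that act on these enzymes, 2 rose and 2 fell at 0.01 µg/mL, 4 rose and 2 fell at 0.1 µg/mL, and 3 rose and 4 fell at 0.5 µg/mL. The rises were 16.7%, 33.3% and 25% of the list, where 8.75%, 17.6% and 7.49% of all tested genes rose. The falls, 16.7%, 16.7% and 33.3% of the list, were near or below the 15.4%, 20.4% and 38.9% of all tested genes that fell, and nothing is read from them. TPK2 and TPK3 encode catalytic subunits of protein kinase A, which restrains glycogen storage. As the authors' deposited tables give it, TPK2 rose (log2 fold change 0.73, 1.02 and 0.54), whereas TPK3 fell (-0.53, -0.60 and -0.77). BCY1, the gene for the regulatory subunit of protein kinase A, was not called at 0.01 µg/mL (0.38). It rose at 0.1 µg/mL (0.58) and at 0.5 µg/mL (0.49). PSK1, a PAS kinase that phosphorylates Ugp1 and glycogen synthase, rose with 0.72, 1.05 and 0.62. SNF4, the gene for the activating subunit of the Snf1 kinase, fell with -0.61, -0.65 and -0.90.

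Of 8 analysed genes for transcription factors and kinases that regulate glycogen genes, 3, 5 and 1 rose with rising dose and 0 fell. The rises were 37.5%, 62.5% and 12.5% of the list. Among all tested genes 8.75%, 17.6% and 7.49% rose and 15.4%, 20.4% and 38.9% fell. Nothing is read from 1 gene of 8. YAK1, a stress-activated kinase that acts on Msn2 and Hsf1, was the one that rose at all 3, at 1.16, 1.54 and 1.02 on the log2 scale of the authors' deposited tables. HAP4 (1.10 and 1.06) and GIS1 (0.52 and 0.67) rose at 0.01 and 0.1 µg/mL and were not called at 0.5 µg/mL. RIM15 (0.44) and HSF1 (0.54) rose at 0.1 µg/mL only. MSN2 mRNA was not called at any dose (0.21, 0.27 and 0.05), nor was MSN4 (0.34, 0.21 and -0.33). Nuclear entry of these factors was not measured here. MIG1 was not analysed here.

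In neighbouring sugar pathways the genes called were counted in the same way, and no difference between lists was tested. Of all tested genes, 8.75%, 17.6% and 7.49% rose with rising dose, and 15.4%, 20.4% and 38.9% fell. Of 5 genes that bring hexose into the phosphate pool or convert it there, 3, 4 and 3 (60%, 80% and 60%) rose and 0 fell. They include the kinase genes HXK1 (1.89, 1.80 and 1.22), GLK1 (1.74, 2.13 and 1.74) and EMI2, a paralog of GLK1 (1.98, 2.26 and 1.74), all log2 fold changes from the authors' deposited tables. A further kinase gene of this list, HXK2, was not called at any dose (0.25, 0.37 and 0.11). Of 7 genes of trehalose, the other storage sugar made from UDP-glucose, 5, 7 and 6 (71.4%, 100% and 85.7%) rose and 0 fell. Their median log2 fold changes were 1.34, 1.89 and 1.48. The synthase gene TPS1 (1.84, 2.23 and 1.59), the trehalose phosphate phosphatase gene TPS2 (1.94, 2.67 and 1.92), the regulatory subunit genes TSL1 (2.85, 3.40 and 2.70) and TPS3 (0.98, 1.21 and 0.71) and the trehalase gene NTH1 (1.34, 1.89 and 1.48) rose at all doses, again by the authors' deposited tables. A list of 7 genes, called UDP-glucose use here, covers wall glucan, galactose metabolism and sterol or N-glycan glucosylation. Not each of its products is known to consume UDP-glucose. Of these 7 genes 0 rose, while 1, 1 and 2 fell. Those falls, 14.3%, 14.3% and 28.6% of the list, were below the shares of all tested genes that fell. ALG5, whose product passes glucose from UDP-glucose to dolichol phosphate, fell at all 3 doses, with -0.55, -0.67 and -0.92. The glucan synthase gene FKS1 was not called, at 0.27, 0.29 and -0.02.

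Among 3 other related genes, 0, 1 and 0 rose and 0, 0 and 1 fell. Nothing is read from 1 gene of 3. PRM15, also known as PGM3, a further phosphoglucomutase relative, was the gene that rose at 0.1 µg/mL. Its log2 fold change was 0.39 (q = 0.061) at 0.01, 0.59 (q = 0.0023) at 0.1 and 0.12 (q = 0.64) at 0.5 µg/mL, by the authors' deposited tables. SGA1, the glucoamylase gene of sporulating cells, stood at 14.4 FPKM at 0.01 µg/mL against 13.6 FPKM and was not called at any dose. The gene that fell was GAL1, a galactokinase gene, at 0.5 µg/mL with -0.55.

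**Figure D5:**
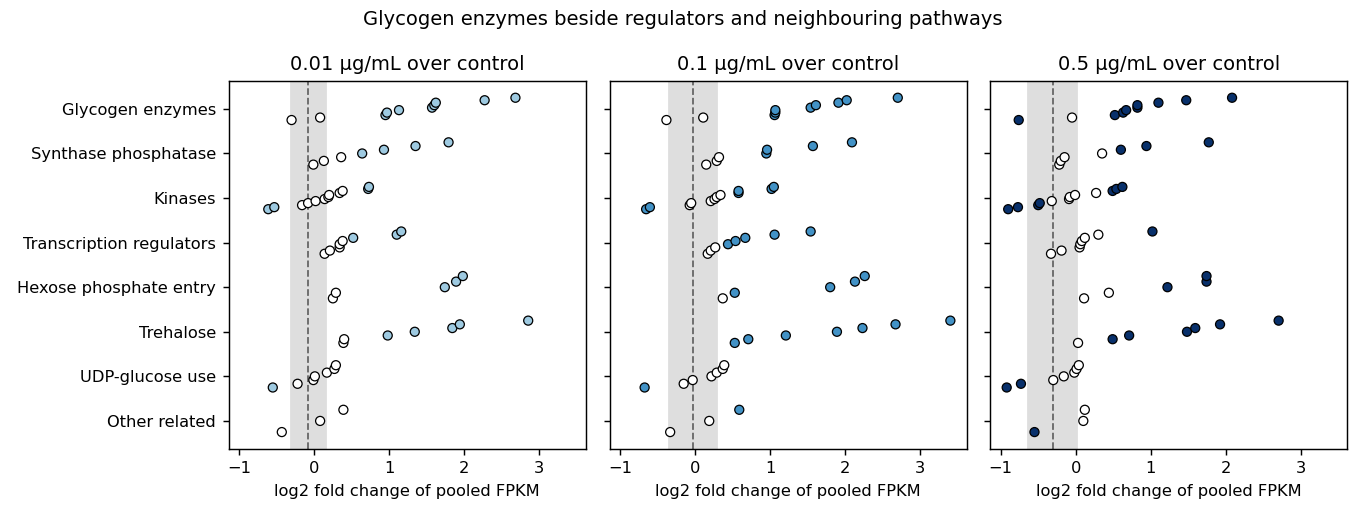
Log2 fold change of pooled FPKM, dose over control (x axis), of each gene of the glycogen set and of 7 lists of regulators and neighbouring pathways (rows), in 1 panel per dose. Filled points were called, and the grey band and dashed line are the quartiles and median of all tested genes. The highest point is TSL1 of the trehalose list, at 2.85, 3.40 and 2.70.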

How the data were processed

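RNA was sequenced from 12 samples in 4 groups of 3, grouped by the labels' treatment. Per the labels' protocols, polyA RNA from a column kit went into TruSeq libraries. The submitters' processing notes name FastQC, Bowtie2 and Cuffdiff with build R64, while strand handling is not given in the sources used here. FPKM levels were made by the authors from pooled samples of a group, and the unit was inferred from Cuffdiff's column names, since the headers do not state it. The log2 fold changes in the text were computed as dose over control from the deposited levels, with no pseudocount, and lie within 1.27e-05 of the authors' deposited log2 column. The authors' adjusted p-values (q) are used as deposited, and a q below 0.05 counts as a call. The column that the file headers call WT was read as the labels' control, after the title line. Each table lacks 3 lines, which are not analysed here. A gene with a level of 0 or with q = 1 counts as not tested.

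No test was added, because the levels are pooled. Of 50 genes in 7 lists, 49 were found, 1 further list gene is not reported here, and the named ones are those called in the same direction at all 3 doses. A list with none is represented by its largest change. GLC7, GAC1, PIG1, GIP2, BCY1, MSN2, MSN4, GIS1, HAP4, RIM15, HSF1, HXK2, FKS1, SGA1 and GAL1 were named after their values were seen. The members and lists were chosen with earlier results of these data known. Upstream windows and coding sequences came from RefSeq's R64 assembly, the build the notes name. Calls and motif searches were tested on simulated data. Python 3.11.15 and Biopython 1.88 were used. The alternatives were a q of 0.01, a minimum change of 2-fold, centring on the median of all genes, a pseudocount of 1 FPKM and a mean level of at least 10 FPKM.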

Additional observations from a re-analysis of the deposited data

How the results depend on the processing

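The call counts of the glycogen genes at 0.01 and 0.1 µg/mL stayed within 1.5 times under every alternative tried. At 0.5 µg/mL a minimum change of 2-fold left 3 of the 8 genes that rose and 0 that fell, and 2-fold from the all-gene median left 5 and 0. Centring on that median moved the medians at 0.5 µg/mL to 1.04 for all members, 1.04 for synthesis and 1.30 for breakdown genes, and turned GLG2, which was not called, to 0.25, by the construction of the centring. Without PGM1, PGM2 and UGP1 the synthesis median was 1.57 at 0.01 and 1.54 at 0.1 µg/mL, and synthesis minus breakdown was -0.13 and 0.00204, while at 0.5 µg/mL it was -0.18, within 0.1 of the value with them. Values with no error count as moved past 0.1 on the log2 scale. A pseudocount of 1 FPKM and a mean level of at least 10 FPKM moved none of these medians and differences by that much, and a control averaged over the 3 tables moved no isoform share in the control columns by 1 percentage point.

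Counts of the smaller lists depend on the minimum change. With 2-fold from 1, the phosphatase list kept 2, 2 and 1 genes higher with rising dose. The kinase list then had 0, 2 and 0 higher and 0, 0 and 0 lower. The transcription regulator list had 2 higher at 0.1 µg/mL, and UDP-glucose use 0 lower at each dose. The other related genes then had 0 higher at 0.1 and 0 lower at 0.5 µg/mL. With 2-fold from the median, the phosphatase list had 2 higher at 0.1 µg/mL, and the kinases, regulators, UDP-glucose use and other related genes had the same counts as with 2-fold from 1 where those moved. With q below 0.01, the kinase list had 1 higher and 2 lower at 0.5 µg/mL. At that q the regulator list had 3 higher at 0.1 µg/mL and the other related genes 0 lower at 0.5 µg/mL. A mean level of at least 10 FPKM left 1 gene of UDP-glucose use lower at 0.5 µg/mL. No paired analysis was possible because the deposited levels pool the samples of a group, and for the same reason leaving out each sample in turn was not run.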
